A study of Arabidopsis thaliana with 6 samples.

Results

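Transcripts of the Polycomb repressive complex 2 (PRC2) and of its partner LHP1 were measured in collections of male meiocytes, the anther cells that undergo meiosis, of Arabidopsis thaliana. The set holds 9 genes of the 27655 in each library, chosen by locus identifier: the catalytic subunit genes CLF (AT2G23380), SWN (AT4G02020) and MEA (AT1G02580), the zinc finger subunit genes EMF2 (AT5G51230), VRN2 (AT4G16845) and FIS2 (AT2G35670), the WD40 subunit genes FIE (AT3G20740) and MSI1 (AT5G58230), and LHP1 (AT5G17690, TFL2 in the reference). All 9 identifiers were found. The collections came from the genotype Ler (Landsberg erecta), used as the wild type, and from knu-2, a mutant allele of the zinc finger gene KNUCKLES (KNU), with 3 libraries of each. Anthers at stages 4 to 7 were squeezed open in both genotypes and the cells that came out were taken for RNA, with no sort named in the labels. No treatment and no transgene is given for either group, the strain background of knu-2 is not stated, and the labels do not say whether the replicates came from separate plants.

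PRC2 places methyl groups on lysine 27 of histone H3, a mark of stably silent genes. Each complex holds a single catalytic subunit of the Enhancer of zeste type (CLF, SWN or MEA), a single zinc finger subunit of the Suppressor of zeste type (EMF2, VRN2 or FIS2), and the WD40 proteins FIE and MSI1. FIE and MSI1 are shared by all forms, CLF and SWN act through much of plant life, and MEA and FIS2 are known above all from the central cell and the endosperm. LHP1 binds the methylated lysine through its chromodomain. KNU itself is a textbook PRC2 target, held silent in young flower meristems until the floral factor AGAMOUS relieves the repression.

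The genes of PRC2 moved in opposite directions in knu-2. CLF and SWN fell, by about the same factor, whereas EMF2, VRN2, FIS2, FIE, MSI1 and LHP1 rose, and MEA had no count in any library. So 8 of the 9 members passed the filter on low counts, and all 8 were called, 6 higher and 2 lower. The 2 lower calls were both lost when libraries were scaled by their totals alone, and also on leaving out Ler replicate 1, Ler replicate 2 or knu-2 replicate 3. The higher calls numbered 5 with DESeq2 and 4 to 6 with 1 library left out. Of all genes tested, 48.1% were called, 23.6% higher and 24.4% lower in knu-2. That split depended on the scaling: 4355 genes were higher and 4501 lower here, against 6149 and 3499 when only library totals were used, so that 63.7% of the calls were then higher in place of 49.2%. The median log2 fold change of the 8 members was 0.89, against 0.10 over all 18422 genes tested. For all 8 members the ranges of the 2 genotypes did not overlap, which held for 59.1% of all genes tested (29.8% with knu-2 above and 29.3% with knu-2 below Ler). Levels are given in CPM, counts relative to the library total, with the totals adjusted between libraries by the TMM method. Every adjusted p given for a gene comes from edgeR's quasi-likelihood test over all genes with Benjamini-Hochberg adjustment, and a gene was called under 0.05.

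Library totals lay between 18070435 and 27995200 counts. KNU stood at 75.2, 68.1 and 87.2 CPM in the Ler libraries and at 13.8, 7.49 and 4.62 CPM in the knu-2 libraries. Its log2 fold change of -3.16 was close to the median of the meiocyte markers given below. The fall in KNU therefore cannot by itself check the genotype labels. The cell type markers differed between the genotypes in the same libraries. Of 10 meiocyte markers, 9 fell and 1, the cohesin gene REC8 (SYN1 in the reference), rose, a call that was lost on leaving out Ler replicate 2, Ler replicate 3, knu-2 replicate 1 or knu-2 replicate 3. Their median log2 fold change was -3.09, and their sum was 3837 to 4818 CPM in the Ler libraries against 1095 to 1879 CPM in the mutant. Of 13 markers of the tapetum, the layer that feeds the meiocytes, 10 were tested. They gave 8 rises and 1 fall, which was DYT1 and was lost on leaving out any Ler library or knu-2 replicate 1, a median of 1.74 and a sum of 345 to 404 CPM in Ler against 1276 to 1759 CPM in the mutant, with MS1 and CYP703A2 at 0 in every library. None of the 4 epidermis markers was called (median 0.0071, sums of 186.5 to 304 CPM in Ler and of 202 to 261 CPM in the mutant), nor any of the 4 markers of photosynthetic tissue (median -0.096, sums of 750.1 to 1182 and 645.5 to 1638 CPM), though 1 of the latter was lower without knu-2 replicate 2. Neither of the 2 tested carpel and ovule markers was called (median 0.36), all 6 summed to at most 3.48 CPM in Ler and 5.80 CPM in the mutant, and STK and INO were at 0. In bulk RNA, fewer cells of a type and less RNA per cell cannot be told apart, and the part of cell mixture in the changes of the PRC2 genes was not tested.

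In the TAIR10.1 assembly, CLF lies at chr2:9955092-9960386, SWN at chr4:886580-891987 and MEA at chr1:544733-549202, all on the plus strand and annotated with up to 17 exons. EMF2 (chr5:20823644-20829644), VRN2 (chr4:9476069-9479878) and FIS2 (chr2:14992565-14996756) are also on the plus strand. FIE (chr3:7248809-7252452) and LHP1 (chr5:5827142-5829763) are on the minus strand, and MSI1 (chr5:23556012-23558245) is on the plus strand. Counts are per gene, and the deposited gene lengths are those of its merged exons. The promoters of SWN, MEA, FIS2 and LHP1 are shown because these genes span the patterns seen (lower, silent and most strongly higher) and no other annotated gene reaches into their windows. Each is the 250 bases before the annotated gene start, 5′ to 3′ on the strand of the gene, from the RefSeq genome TAIR10.1. Capitals would mark a match on either strand to any of the 4 motifs named after the sequences, and these windows hold none.
SWN promoter, plus strand of chr4:886330-886579: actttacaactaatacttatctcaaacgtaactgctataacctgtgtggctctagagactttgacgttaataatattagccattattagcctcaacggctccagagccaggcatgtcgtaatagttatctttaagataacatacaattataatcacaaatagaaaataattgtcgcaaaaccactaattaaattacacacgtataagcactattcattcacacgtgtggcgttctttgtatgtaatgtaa
MEA promoter, plus strand of chr1:544483-544732: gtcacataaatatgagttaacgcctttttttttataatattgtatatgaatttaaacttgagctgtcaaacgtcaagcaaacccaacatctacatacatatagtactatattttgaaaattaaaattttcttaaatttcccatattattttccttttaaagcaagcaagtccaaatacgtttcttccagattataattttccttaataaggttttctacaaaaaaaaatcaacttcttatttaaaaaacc
FIS2 promoter, plus strand of chr2:14992315-14992564: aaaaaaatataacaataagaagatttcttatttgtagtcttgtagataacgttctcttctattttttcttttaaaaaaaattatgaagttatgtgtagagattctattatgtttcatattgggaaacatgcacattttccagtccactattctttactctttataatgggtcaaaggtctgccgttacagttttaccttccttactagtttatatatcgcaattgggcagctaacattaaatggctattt
LHP1 promoter, minus strand of chr5:5829764-5830013: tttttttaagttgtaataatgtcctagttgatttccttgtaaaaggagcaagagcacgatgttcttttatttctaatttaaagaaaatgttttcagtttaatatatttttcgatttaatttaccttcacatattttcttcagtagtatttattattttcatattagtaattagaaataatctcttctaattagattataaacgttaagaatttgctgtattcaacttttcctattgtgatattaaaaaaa

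GAGAGA is the core of the elements bound by BPC proteins. The sequence TTTCCCG is a form of the E2F site, as is the form TTTGGCG, and AAACCCT is the core of the telobox bound by TRB proteins. Among the 9 members, GAGAGA was found in the windows of CLF, 25 bases before the gene start, and of MSI1, on the reverse strand 146 bases before it. Other annotated genes reach into both windows, AT2G23370 into that of CLF and AT5G58220 into that of MSI1. GAGAGA occurs in 20.6% of the 27438 windows of the genes in the files. The other motifs were in none of the 9 windows, and of all windows 1.89% and 1.65% hold the first and the second E2F form and 7.33% the telobox core. A match is a description of letters and not a bound site.

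Among the catalytic subunits, SWN was the more abundant transcript and fell slightly in knu-2. SWN, the methyltransferase that acts redundantly with CLF, was at 118.5, 114 and 106 CPM in Ler replicates 1 to 3 and at 89.2, 75.7 and 75.9 CPM in knu-2 replicates 1 to 3. All mutant values were below all Ler values. The means were 113 ± 6.496 and 80.2 ± 7.72 CPM (SD, n = 3 each), a log2 fold change of -0.49 (SE 0.15; edgeR adjusted p = 0.0212), which is 1.41-fold lower. CLF, the methyltransferase best known for silencing AGAMOUS in leaves, was at 52.7, 56.8 and 59.7 CPM in Ler and at 48.5, 35.0 and 35.0 CPM in knu-2. Here too the genotypes did not overlap, although knu-2 replicate 1 was much closer to the Ler values than replicates 2 and 3 were. That library also had the highest meiocyte marker sum of the mutant (1879 CPM, against 1095 and 1346 CPM). SWN followed the order of this sum within both genotypes. In Ler, CLF ran the other way and was lowest in replicate 1, where the sum was highest (4818 CPM). The part of meiocyte content in these levels was not tested. CLF fell from 56.4 ± 3.52 to 39.5 ± 7.79 CPM, 1.43-fold, with a log2 fold change of -0.51 (SE 0.18, adjusted p = 0.0375).

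Both of these falls are small, their size depended on the scaling, and their calls did not hold in every set of 5 libraries. With no scaling beyond library totals the fold changes of all genes rose by 0.32 (median, log2), SWN was at -0.17 (adjusted p = 0.309) and CLF at -0.20 (adjusted p = 0.367), and neither was called. Under that scaling the median of all genes was 0.42, so that SWN lay 0.60 and CLF 0.63 below it. SWN was no longer called when Ler replicate 1, Ler replicate 2 or knu-2 replicate 3 was left out (edgeR adjusted p = 0.058 to 0.0811). CLF lost its call on leaving out any library but knu-2 replicate 1 (0.0637 to 0.11). With each of the 6 libraries left out in turn, the log2 fold change was -0.59 to -0.45 for SWN and -0.70 to -0.43 for CLF. SWN has no annotated overlap with another gene. CLF overlaps AT2G23370 by 58 bases and AT2G23390 by 22 bases, both on the opposite strand and both lower in knu-2 (log2 fold changes -1.69 and -1.07). Since no source used here states a strand setting, reads in such overlaps cannot be assigned to either gene.

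MEA, the catalytic subunit of the endosperm form, had 0 counts in all 6 libraries. A count of 0 allows up to 0.119 to 0.166 CPM per library, taking 3 counts as the limit, for counting error only. Reading CLF and SWN per length within a library removes any effect of scaling. SWN held 69.9%, 67.5% and 64.6% of the catalytic transcripts in Ler and 65.5%, 69.1% and 69.1% in knu-2, with CLF as the remainder. The ranges overlapped, and the mean share of SWN differed by 0.55 percentage points (exact two-sided permutation p = 0.7, adjusted over 5 shares 0.7). SWN over CLF, per length, had a mean of 2.08 ± 0.247 for Ler and 2.12 ± 0.194 for the mutant (SD, n = 3 libraries each).

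**Figure D1:**
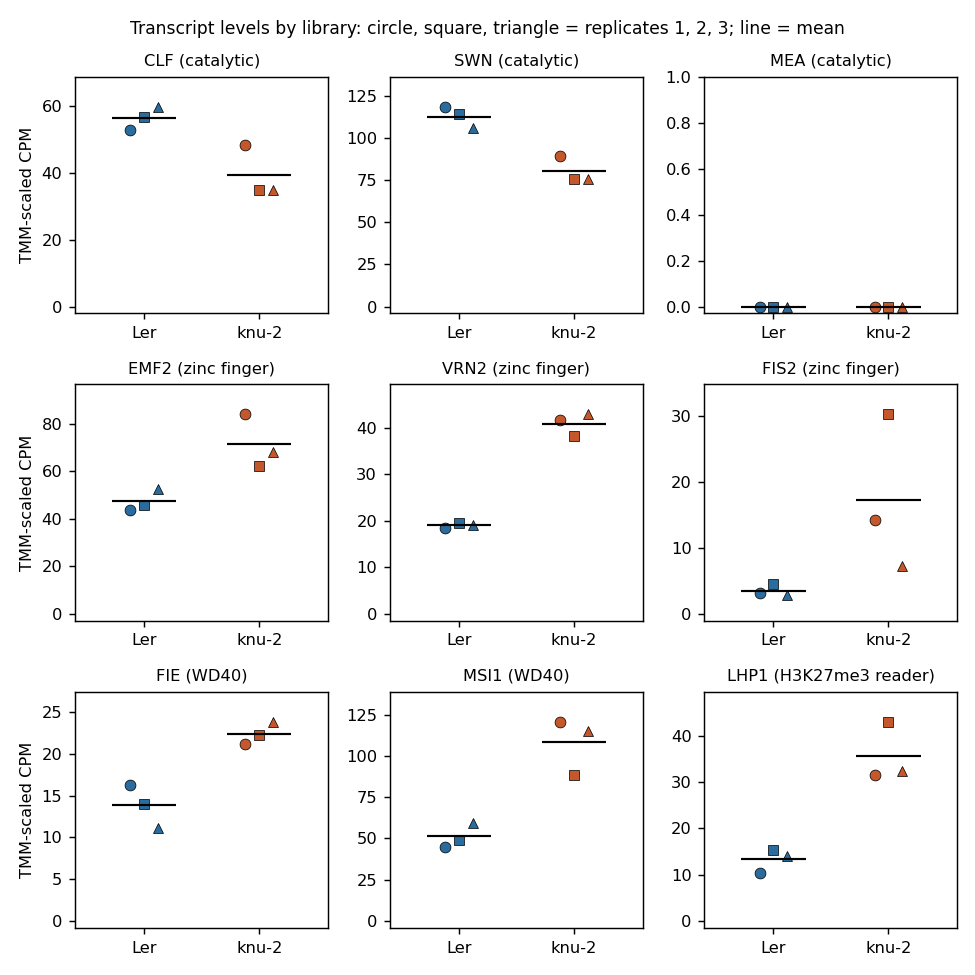
TMM-scaled CPM of the 9 genes in each library, with Ler in blue and knu-2 in orange, 1 symbol per replicate and a line at the mean of 3. CLF and SWN lie lower in knu-2, MEA is at 0 in all libraries, and the other 6 genes lie higher in every knu-2 library than in any Ler library.

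All 3 zinc finger subunit genes rose. EMF2, the subunit that keeps seedlings from flowering at once, was at 43.8, 45.9 and 52.7 CPM in Ler and at 84.0, 62.4 and 68.2 CPM in knu-2. The genotypes did not overlap and the rise was 1.51-fold (log2 fold change 0.59, SE 0.18, adjusted p = 0.0157). VRN2, needed for lasting repression of FLC after cold, was at 18.5, 19.5 and 19.1 CPM in Ler and at 41.6, 38.1 and 42.9 CPM in knu-2. It was the least variable member within a genotype, with a coefficient of variation of 2.67% in Ler and 6.03% in knu-2, and it rose 2.14-fold (log2 fold change 1.1, SE 0.18, adjusted p = 0.000392). EMF2 was not called when Ler replicate 1, Ler replicate 2 or knu-2 replicate 1 was left out (adjusted p = 0.0603 to 0.0681), while VRN2 was called under all 13 alternatives. 

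FIS2, whose product pairs with MEA in the endosperm form, had the largest fold change of the set. It was at 3.21, 4.54 and 2.82 CPM in Ler, from 73, 115 and 51 counts, and at 14.3, 30.3 and 7.22 CPM in knu-2, from 281, 664 and 178 counts. The genotypes did not overlap, but the knu-2 libraries spread 4.2-fold among themselves, the widest spread of any member in either genotype. The log2 fold change was 2.29 (SE 0.49, adjusted p = 0.00308), which is 4.89-fold, and without knu-2 replicate 2 it was 1.61 (adjusted p = 0.00931). Knu-2 replicate 2 also had the highest sums of the tapetum markers (1759 CPM), of the photosynthetic markers (1638 CPM) and of the carpel and ovule markers (5.80 CPM, against 1.63 to 3.48 CPM in the other 5 libraries). The part of any of these in the FIS2 value was not tested. FIS2 overlaps AT2G35680 by 44 bases on the opposite strand, and that gene had 205 to 228 CPM in Ler and 294 to 310.4 CPM in the mutant. AT2G35680 was called higher in knu-2 (log2 fold change 0.46, adjusted p = 0.0246). The part of reads from this overlap in the low FIS2 counts was not tested.

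The shares of the 3 zinc finger subunits were compared next, by a permutation test that cannot give a p under 0.05 with these libraries. No share could therefore be called. EMF2 held 60.4%, 59.4% and 64.4% of the zinc finger transcripts per length in Ler and 53.9%, 42.8% and 50.8% in knu-2. VRN2 held 35.0%, 34.6% and 32.0% in Ler and 36.6%, 35.8% and 43.7% in knu-2. For both genes the genotypes did not overlap, with exact two-sided permutation p = 0.1 each, the smallest that 3 libraries against 3 can give, and 0.25 after adjustment over 5 shares. FIS2 held 4.57%, 6.06% and 3.55% in Ler and 9.49%, 21.5% and 5.54% in knu-2, where the ranges overlapped (permutation p = 0.2, adjusted 0.333).

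The WD40 subunits shared by all forms of PRC2 rose as well. MSI1, a histone-binding protein that also belongs to chromatin assembly factor 1 (CAF-1), was at 44.7, 49.3 and 59.6 CPM in Ler and at 121, 88.3 and 115 CPM in knu-2. The genotypes lay well apart, and MSI1 rose 2.11-fold (log2 fold change 1.08, SE 0.18, adjusted p = 0.000613). FIE, the partner that joins the catalytic subunit to the complex, was at 16.3, 14.03 and 11.2 CPM in Ler and at 21.1, 22.2 and 23.9 CPM in knu-2. It rose 1.62-fold without overlap of the genotypes (log2 fold change 0.69, SE 0.23, adjusted p = 0.0251). FIE lost its call in DESeq2 (0.62, adjusted p = 0.0563) and on leaving out Ler replicate 2, Ler replicate 3 or knu-2 replicate 3 (0.0631 to 0.105). MSI1 was called under all 13 alternatives. MSI1 overlaps FHIT by 132 bases on the opposite strand, and FHIT was not called (log2 fold change 0.17, adjusted p = 0.454). FIE overlaps AT3G20730 by 70 bases, which was not called either (-0.49, adjusted p = 0.244). FIE also overlaps AT3G04025 by 210 bases on the opposite strand, a gene that is not among those counted, so its level is unknown here.

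LHP1, the reader of the mark, had the second largest fold change after FIS2. It was at 10.3, 15.4 and 14.1 CPM in Ler and at 31.4, 43.0 and 32.4 CPM in knu-2. The lowest knu-2 library was above the highest Ler library, and the rise was 2.68-fold (log2 fold change 1.42, SE 0.23, adjusted p = 0.000439). LHP1 was called under all 13 alternatives, at log2 fold changes of 1.27 to 1.75. It overlaps AT5G17680 by 12 bases on the opposite strand, a gene that was not called (log2 fold change 1.04, adjusted p = 0.0761).

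**Figure D2:**
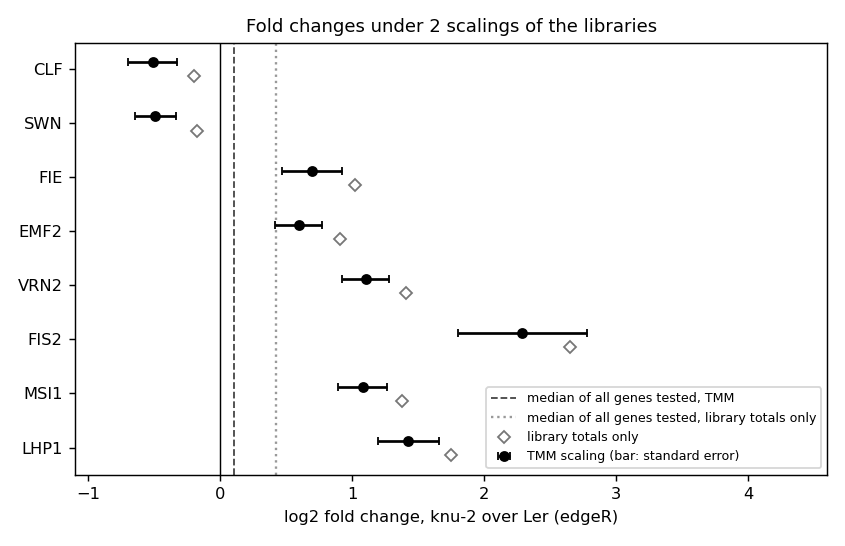
Log2 fold change of each measured gene, knu-2 over Ler, from edgeR with TMM scaling (filled, with standard error) and with library totals only (open); dashed and dotted lines mark the median of all genes tested under each scaling. CLF and SWN lie below that median and the other 6 genes above it under both scalings, and without TMM scaling CLF and SWN are at -0.20 and -0.17 and were not called.

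Ratios between subunits within a library, taken per length, do not depend on the scaling between libraries. They were formed after the values had been seen and are given as a description. The sum of EMF2, VRN2 and FIS2 over the sum of CLF and SWN was 0.537, 0.576 and 0.629 in Ler and 1.44, 1.68 and 1.54 in knu-2. The zinc finger transcripts were thus fewer than the catalytic ones in every Ler library and more in every knu-2 library, a 2.67-fold change of the mean ratio. MSI1 over the catalytic sum went from 0.641 ± 0.109 to 1.91 ± 0.261, FIE over it from 0.179 ± 0.0304 to 0.417 ± 0.0706, and LHP1 over it from 0.133 ± 0.0271 to 0.512 ± 0.136 (SD, n = 3 each). In each of these the genotypes lay apart. FIE over the zinc finger sum was 0.313 ± 0.0769 for Ler against 0.268 ± 0.0365 for the mutant, and these ranges overlapped.

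**Figure D3:**
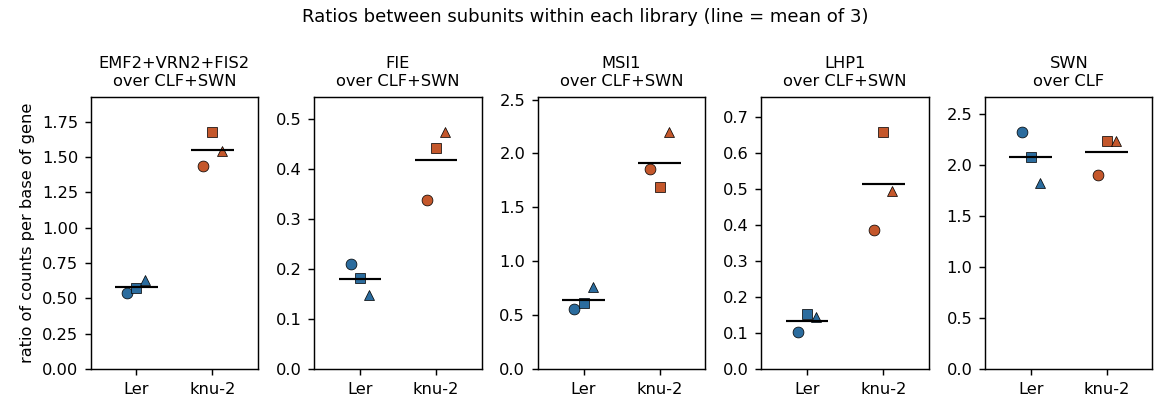
Ratios of counts per base of gene between subunits within each library, with Ler in blue and knu-2 in orange, circle, square and triangle for replicates 1, 2 and 3, and a line at the mean. The first 4 ratios lie higher in every knu-2 library, while SWN over CLF overlaps at means of 2.08 and 2.12.

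The order of the transcripts changed with these shifts. On a scale per length, which divides the scaled CPM by the gene length in kilobases (RPKM), SWN (33.1 ± 1.91) and MSI1 (31.5 ± 4.68) were the highest in Ler and overlapped each other. EMF2 (17.5 ± 1.73) and CLF (16.0 ± 1.00) followed below them and also overlapped. VRN2 (9.65 ± 0.257), FIE (8.85 ± 1.65) and LHP1 (6.53 ± 1.295) came next, each overlapping its neighbour, and FIS2 (1.34 ± 0.345) lay apart at the bottom of the expressed members. In knu-2, MSI1 alone led at 66.5 ± 10.7 RPKM, above 91.0% of all genes tested against 75.7% in Ler. EMF2 (26.5 ± 4.13) and SWN (23.6 ± 2.27) overlapped below it, and VRN2 (20.7 ± 1.25) overlapped LHP1 (17.5 ± 3.17). FIE (14.3 ± 0.880), CLF (11.2 ± 2.22) and FIS2 (6.60 ± 4.52) closed the order, each overlapping its neighbour (SD, n = 3 throughout). CLF thus moved from the fourth place in Ler to the seventh in knu-2.

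Genes that work beside PRC2 were read from lists of textbook members, against the 48.1% of all genes that were called. Of 19 tested accessory and recruiting factors, 9 rose and 3 fell, while 7 passed no threshold, at a median log2 fold change of 0.57. VEL1, a plant homeodomain protein of the VIN3 family that binds PRC2, rose from 33 ± 2.63 to 100 ± 13.4 CPM, and its relative VEL2 fell from 61.2 ± 5.08 to 17.8 ± 1.63 CPM. LIF2, an RNA-binding partner of LHP1, rose from 50.6 ± 3.31 to 129 ± 6.25 CPM, and BPC6, a GAGA-binding recruiter, fell from 115 ± 7.75 to 34.9 ± 3.95 CPM (SD, n = 3 each). These 4 were picked for the smallest p in the list, so their calls (edgeR adjusted p = 1.85e-05 to 4.45e-05) follow from that choice. Their ranges did not overlap between the genotypes, which held for 59.1% of all genes tested. The falls in this list numbered 5 in place of 3 with DESeq2, with DESeq2 size factors and with no filter on low counts.

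Of 4 tested PRC1 genes, whose products add ubiquitin to histone H2A, RING1B alone was called. It rose from 16.0 ± 3.04 to 36.6 ± 0.808 CPM (SD, n = 3 each; edgeR log2 fold change 1.196, SE 0.20, adjusted p = 0.000589). DRIP1 (1.51, adjusted p = 0.0755), RING1A (0.23, 0.673) and BMI1A (-0.14, 0.697) were not called in edgeR, and DRIP1 was called with no scaling beyond library totals (0.0349) and without knu-2 replicate 1 (0.0373). All 6 relatives and CAF-1 partners of MSI1 were called, and 5 of them moved the other way from MSI1. MSI2 fell from 305 ± 24.7 to 126 ± 38.6 CPM, MSI3 from 140 ± 11.5 to 48.3 ± 12.4 CPM and FVE, the MSI4 gene of the flowering pathway, from 298.5 ± 20.4 to 177 ± 35.5 CPM. The CAF-1 subunit gene FAS2 fell from 155 ± 7.64 to 57.4 ± 13.4 CPM (SD, n = 3 each). The adjusted p-values of these 4 lay between 9.84e-05 and 0.00521, and the median log2 fold change over the list was -1.29.

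Genes whose products remove or oppose the mark, and the H3K27 monomethyltransferase genes, gave mixed values. Of 4 tested H3K27 demethylase genes, JMJ30 fell from 98.8 ± 5.37 to 19.2 ± 11.0 CPM and JMJ32 from 29.0 ± 5.82 to 10.6 ± 3.74 CPM (SD, n = 3 each; adjusted p = 0.00521 and 0.00137). ELF6 (log2 fold change -0.31, adjusted p = 0.252) and REF6 (0.28, 0.304) were not called, and REF6 was called higher with no scaling beyond library totals (0.59, 0.0399). Among 12 trithorax-group genes and remodelers, 6 rose and 4 fell, with a median of 0.37. ULT1, a SAND-domain antagonist of CLF, rose from 33.9 ± 1.34 to 108 ± 3.36 CPM and the methyltransferase gene ATX4 from 26.3 ± 1.498 to 52.95 ± 9.68 CPM. The methyltransferase genes ATX3 and ATXR3 fell from 128 ± 9.98 to 51.4 ± 9.71 CPM and from 163 ± 7.68 to 110.5 ± 5.35 CPM (SD, n = 3 each). All 4 were called (edgeR adjusted p = 1.49e-05 to 0.00878), having been picked for the smallest p in the list. Scaled by library totals alone, ATXR3 was at -0.24 and not called (adjusted p = 0.141). The 6 rises were 3 without Ler replicate 1, Ler replicate 2 or knu-2 replicate 1 and with DESeq2 size factors, and the 4 falls were 2 without Ler replicate 3 and 1 with no scaling. Of the H3K27 monomethyltransferase genes, ATXR5 rose (1.38, adjusted p = 0.00468) and ATXR6 was at 0.26 (0.627).

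**Figure D4:**
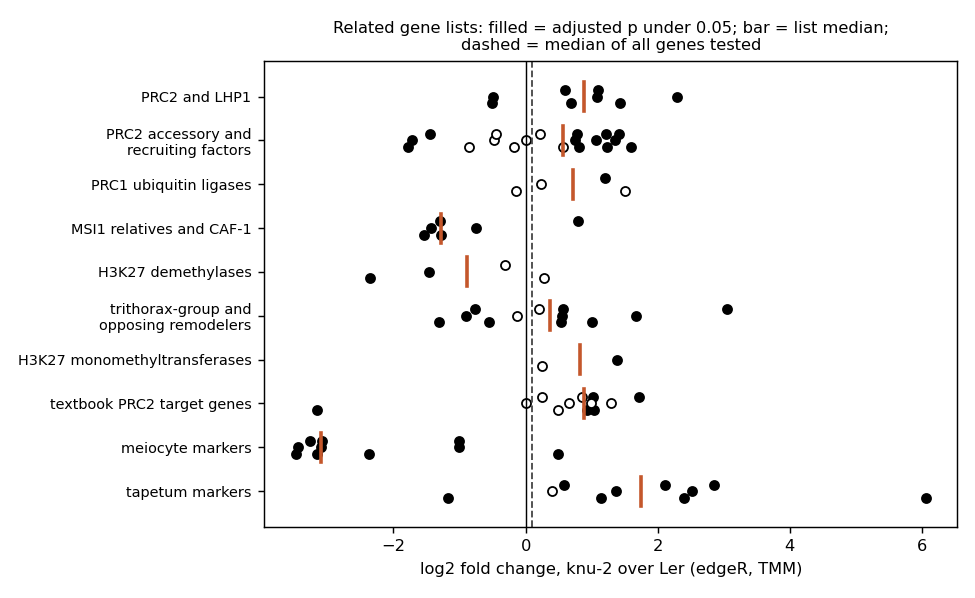
Log2 fold change, knu-2 over Ler, of every tested gene of PRC2 and LHP1, of 7 related lists and of the meiocyte and tapetum markers; filled points were called, the bar is the list median, and the dashed line is the median of all genes tested, 0.10. The relatives and CAF-1 partners of MSI1 lie mostly below 0, at a joint median of -1.29, and the median of the meiocyte markers is -3.09.

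Many textbook targets of PRC2 had few or no counts in both genotypes, as had many genes outside the list. Of all 27655 genes, 9233 were left out by the filter on low counts, and those with no count at all were not numbered. Of 26 listed, 8 had no count in any library: AGL17, AGL19, PHE1, PHE2, FT, ABI3, LEC1 and FUS3. Of the 12 with enough counts to be tested, 4 rose and 1 fell, while 7 passed no threshold, at a median log2 fold change of 0.89. The share called was 41.7%, against 48.1% of all genes tested. The fall was that of KNU, the mutated gene (-3.16, SE 0.36, adjusted p = 0.000128). FLC, the repressor of flowering, was at 1.67, 4.27 and 3.70 CPM in Ler and at 10.8, 10 and 11.1 CPM in knu-2, without overlap (1.72, SE 0.40, adjusted p = 0.00402). The floral organ genes SEP3 and AP3 rose from 24.5 ± 5.02 to 50.5 ± 7.35 CPM and from 60.6 ± 13.2 to 123.4 ± 35.7 CPM (SD, n = 3 each; adjusted p = 0.00169 and 0.00358). AG, the AGAMOUS gene and the fourth that rose, went from 30.05 ± 7.30 to 57.2 ± 17.9 CPM (adjusted p = 0.0109).

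The genes whose levels ran most like those of SWN over the 6 libraries were AT5G59690, annotated as a histone superfamily protein (Pearson r = 0.9988), and ZCW7 (0.9987), among 14205 genes with a mean of 5 CPM or more. Both were called lower, at log2 fold changes of -1.71 and -1.49, against -0.49 for SWN. For CLF they were AT1G07860 (0.9998), at a mean of 24.7 CPM in Ler, and AT5G15060 (0.9993), at 35.8 CPM. Both of these had 0 counts in knu-2 replicates 2 and 3 and were not called (adjusted p = 0.186 and 0.199). Pearson's r takes no account of the size of a change, and libraries of a genotype share its level, so these values describe likeness over 6 points only.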

How the data were processed

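RNA sequencing of 3 Ler and 3 knu-2 collections gave 1 deposited file per library. Libraries were made from polyadenylated RNA with random-hexamer priming, per the labels' protocols. The authors deposited whole-number counts per gene with the gene length in base pairs, per the file headers. The aligner, counting tool, genome build and strand are unstated in those protocols and headers. Among 27655 genes, 27445 were found in the TAIR10.1 annotation, and 99.36% of these had exactly its merged exon length. Coordinates and promoters are those of TAIR10.1.

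Genes were filtered with edgeR's filterByExpr, leaving 18422, scaled by TMM and tested by genotype alone in its robust quasi-likelihood fit (R 4.3.3, edgeR 4.0.16), after a check on simulated data. Only a small part of the genes was changed in that check, whereas 48.1% were called here. It therefore cannot judge the scaling of these libraries. The standard error was taken from the test statistic. Shares per length were tested by exact permutation, two-sided (SciPy 1.17.1). Alternatives were limma-voom 3.58.1, DESeq2 1.42.0 and its size factors, no scaling, no filter on low counts, a 5 CPM filter, a replicate block and each library left out. Pairs of libraries of 1 genotype had chi-square values of 18.8 or more per degree of freedom and were counted as separate. The p-values rest on the spread among these libraries, which the labels call biological replicates without saying whether they came from separate plants.

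The members and the related lists were chosen with earlier results of these data known. Of the 120 related entries, 8 were dropped because the reference gives their identifier no symbol. Genes named are the members, KNU, up to 4 of each list with the smallest p, and the 2 most similar to CLF and to SWN; MEA had no counts to compare. The overlapping neighbours, REC8, DYT1, AG and the genes at 0 were named after their values were seen.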

Additional observations from a re-analysis of the deposited data

How the results depend on the processing

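VRN2, FIS2, MSI1 and LHP1 kept their call and direction under all 13 alternatives, and all 8 measured members kept their direction under each. CLF was called in 8 of 14 settings, SWN and FIE in 10 and EMF2 in 11, the main one included. With no scaling beyond library totals 0 members were lower in place of 2, with CLF at -0.20 and SWN at -0.17. The cause was not tested. FIE was at 0.62 with DESeq2 and not called. Leaving out 1 library at a time gave 4 to 6 members higher and 0 to 2 lower. The log2 fold changes were then -0.70 to -0.43 for CLF, -0.59 to -0.45 for SWN, 0.55 to 0.83 for FIE and 0.45 to 0.69 for EMF2. Fewer samples enter these fits.

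Among related lists, falls of accessory factors numbered 5 with DESeq2, with its size factors and with no filter on low counts, in place of 3. With no scaling the PRC1 list had 2 rises in place of 1, the demethylases 1 in place of 0, the trithorax list 1 fall in place of 4 and the tapetum markers 0 in place of 1. With DESeq2 size factors the trithorax rises were 3 in place of 6 and REC8 was not called, as with DESeq2, giving 0 rises of meiocyte markers in place of 1. The tapetum fall was also lost with the filter at 5 CPM. Without single libraries the PRC1 rises were 1 to 2, the trithorax rises 3 to 6 and falls 2 to 4, the meiocyte marker rises 0 to 1, the tapetum falls 0 to 1 and the photosynthetic falls 0 to 1.

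The groups share replicate numbers. Deviations of same-numbered libraries correlated at -0.121, 0.103 and 0.0523, and those of differently numbered libraries at -0.205 to 0.13. With 3 libraries per genotype, these values cannot decide whether the numbers mark pairs. With the replicate block 6 members were higher and 2 lower, as without it, and 4284 genes were higher and 4562 lower in place of 4355 and 4501. Under the block 0 tapetum markers fell in place of 1 and 1 photosynthetic marker was lower in place of 0. MEA had no count in any library, and FIS2 had 51 to 115 counts in Ler.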
